A study of Mus musculus with 20 samples.

Results

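The apolipoprotein genes examined here were 10 genes chosen by name, Apoa1, Apoa2, Apoa4, Apoa5, Apob, Apoc1, Apoc3, Apoe, Apoh and Apom. Their Ensembl identifiers were paired with symbols through GENCODE release M21, and the 10 are part of 46603 gene identifiers in the count tables. All 10 passed the filter on low counts, and none had fewer than 974 counts in any library. They were measured by RNA sequencing of polyadenylated RNA from livers of male mice that were 2 months old and fed standard chow. Each of 4 groups held 5 libraries. The wild-type (WT) groups were purchased C57BL/6J mice. The knockout (KO) groups were EedHepKO mice of the same labelled strain, bred by crossing an albumin-promoter Cre transgene (Alb:Cre) to an Eed allele with loxP sites around exons 3 to 6. No Cre or floxed allele is named for the WT mice, so the genotypes also differ in these alleles and in their colony. In this model Cre is meant for hepatocytes, and which cells of a KO liver lost Eed was not measured here. EED is a core subunit of PRC2, the complex that methylates histone H3 at lysine 27. Baseline samples were lobes 1, 2 and 3, removed in the partial hepatectomy (PHx) itself. Samples after PHx were lobes 4, 5 and 6 of the same mice, taken at 30 h (1 mouse per genotype), 40 h (2) or 48 h (2). Stage and lobe therefore cannot be told apart.

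Apolipoproteins are the protein part of plasma lipoproteins, and hepatocytes secrete most of them. ApoB is the scaffold of very-low-density lipoprotein, ApoA-I and ApoA-II form high-density lipoprotein (HDL), ApoE is the ligand by which the LDL receptor family clears remnants, and the small ApoC proteins and ApoA-V tune lipoprotein lipase and remnant uptake. ApoA-IV is made mainly by the intestine, and the mouse liver also makes it. ApoM carries sphingosine-1-phosphate on HDL, and ApoH, or beta-2-glycoprotein I, binds anionic phospholipids in plasma.

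The 10 genes lie at 6 places in the genome (mm10, GENCODE M21). Apoa1 (chr9:46228580-46230466, plus strand), Apoc3 (chr9:46232933-46235636, minus), Apoa4 (chr9:46240696-46243459, plus) and Apoa5 (chr9:46268633-46271919, plus) are neighbours. Apoc1 (chr7:19689481-19692660) and Apoe (chr7:19696109-19699188) are neighbours on the minus strand. The other 4 stand apart, with Apoa2 at chr1:171225054-171226379 (plus), Apob at chr12:7977648-8016835 (plus), Apoh at chr11:108343354-108414396 (plus) and Apom at chr17:35128997-35132050 (minus). All are protein-coding. The counts are per gene, and the annotation they were counted over is not given.

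The stretches just before the start of 4 of these genes are shown because Apoa4 and Apoa1 are neighbours whose counts responded differently to PHx, while Apoa2 and Apoe both fell. They come from the RefSeq promoter table (GRCm38.p6), which gave 8 of the 10 genes and neither Apoc1 nor Apoc3. Each runs 5′ to 3′ up to the RefSeq start site, or to the GENCODE gene start where that comes first. Capitals mark matches to 4 motifs, which were chosen after the sequences were seen. Apoa1 and Apoe have none.
Apoa4 (chr9:46240594-46240695, plus strand, 102 bases): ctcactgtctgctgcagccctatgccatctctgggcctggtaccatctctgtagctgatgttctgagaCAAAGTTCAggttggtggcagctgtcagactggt
Apoa1 (chr9:46228380-46228579, plus strand, 200 bases): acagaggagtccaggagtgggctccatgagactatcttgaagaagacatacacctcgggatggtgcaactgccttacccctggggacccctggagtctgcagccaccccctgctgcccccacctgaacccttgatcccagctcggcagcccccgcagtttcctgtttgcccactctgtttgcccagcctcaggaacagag
Apoa2 (chr1:171224804-171225053, plus strand, 250 bases): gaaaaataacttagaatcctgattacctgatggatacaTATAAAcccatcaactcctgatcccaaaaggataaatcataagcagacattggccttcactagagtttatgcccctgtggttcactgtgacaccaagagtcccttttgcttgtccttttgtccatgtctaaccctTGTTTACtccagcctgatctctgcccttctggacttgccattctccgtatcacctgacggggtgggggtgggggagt
Apoe (chr7:19699189-19699438, minus strand, 250 bases): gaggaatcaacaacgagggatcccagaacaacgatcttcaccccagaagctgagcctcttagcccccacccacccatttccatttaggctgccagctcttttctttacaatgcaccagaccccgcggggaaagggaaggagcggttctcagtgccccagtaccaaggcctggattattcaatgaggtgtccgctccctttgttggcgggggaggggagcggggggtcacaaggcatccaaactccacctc
The motif CAAAGNNCA, written for HNF4-type sites and searched on both strands, was in 3 of the 8 windows of 250 bases, and 5.49% of 32851 RefSeq windows of that length hold it. In Apoa4 the match CAAAGTTCA lay from 182 to 174 bases before the RefSeq start, and Apob and Apoh held the others. The forkhead motif TGTTTAC, on both strands, was in Apoa2 and Apoh and in 3.17% of all windows. The letters TATAAA, on the plus strand, were in Apoa2, Apoa5 and Apob and in 7.59% of all windows, 212 to 207 bases before the start in Apoa2, 56 to 51 in Apoa5 and 60 to 55 in Apob. The receptor half-site AGGTCA, on both strands and not overlapping another match, was in Apoh and in 14.02% of all windows. The windows of Apoa1, Apoe and Apom held none of the 4 letter patterns.

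Libraries held 21634890 to 30461351 counts. Values are CPM, counts scaled to a common library total with edgeR's TMM factors, and libraries after PHx are given in the order 30, 40, 40, 48 and 48 h. Group values are mean ± SD over 5 libraries. Fold changes, standard errors (SE) and Benjamini-Hochberg adjusted p-values come from edgeR's quasi-likelihood test over 14661 genes, and a gene is called where the adjusted p is under 0.05. Eed itself was 16.8 ± 1.09 and 18.4 ± 3.98 CPM in the WT groups and 5.64 ± 1.44 and 4.62 ± 1.13 CPM in the KO groups, with no overlap between genotypes. Summed over 8 hepatocyte markers that are no members, the 5 WT libraries held 119946 to 138962 CPM at baseline and 78765 to 124222 CPM after PHx. The 5 KO libraries held 85124 to 110841 CPM at baseline and 43788 to 104878 CPM after PHx, and no marker was at 0 in any library. On average most of this sum was Alb, with 92620 CPM in WT and 59795 CPM in KO at baseline. Baseline means of Ttr, Fgb, Serpinc1, Ambp and Cps1 were also lower in KO, and those of Ahsg and Trf were higher. Sums over 10 macrophage markers (190 to 334 against 491 to 633 CPM) and 8 stellate cell markers (160 to 258 against 419 to 544 CPM) were higher in KO than in WT at baseline, and 4 and 5 of these genes were called higher. After PHx, KO and WT overlapped for macrophage markers (110 to 431 against 79.8 to 401 CPM) and not for stellate cell markers (279 to 478 against 164 to 237 CPM), and 2 and 3 of these genes were called higher in KO. Sums over 6 cholangiocyte markers were 23.3 to 58.2 CPM in WT and 55.5 to 359 CPM in KO at baseline, and 20.97 to 239 and 120 to 562 CPM after PHx. On average most of this sum was Spp1 in every group. Of the 5 cholangiocyte markers tested, 1 was higher in KO at baseline and 4 after PHx, and 3 rose with PHx in KO and 0 in WT. With PHx, 4 macrophage and 3 stellate cell markers fell and 1 macrophage marker rose in KO, and 1 macrophage marker fell and 2 rose in WT. Sums over 7 endothelial markers were lower after PHx without overlap, with 219 to 257 against 93.1 to 185 CPM in WT and 238 to 289 against 106 to 211 CPM in KO. Of these 7, 2 fell in each genotype and 1 rose in KO, and 1 was higher in KO than in WT at each stage. Of the hepatocyte markers, 0 were called between genotypes at baseline and 2 were lower in KO after PHx, and with PHx 1 fell in WT and 2 in KO. The part of these markers in the differences below was not tested. In bulk liver, fewer cells of a type and less RNA per cell cannot be told apart.

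Together the 10 genes took 4.68% ± 0.38 of all counts in WT at baseline, 4.67% ± 1.12 in WT after PHx, 4.80% ± 0.26 in KO at baseline and 4.70% ± 0.49 in KO after PHx. The share of unscaled counts thus differed by less than the spread between libraries, while its make-up changed. On the TMM scale used for all other values it was not level, with a sum of 61353 ± 2736 CPM in WT at baseline, 48362 ± 14765 in WT after PHx, 45397 ± 5108 in KO at baseline and 38361 ± 11019 in KO after PHx. All 5 KO baseline libraries lie below all 5 WT baseline libraries on that scale, and the other pairs of groups within a stage or a genotype overlap. Per kilobase of exon, Apoa2 led WT liver at baseline with 14115 ± 879 CPM per kb. Apoe followed with 11121 ± 516, Apoa1 with 9595 ± 403 and Apoc1 with 5143 ± 438. Apoc3, Apoh, Apob, Apoa5 and Apom came next in falling order, and Apoa4 was last with 48.9 ± 12.9 CPM per kb. Of neighbours in that order, the ranges of Apob and Apoa5 overlapped and the others did not. After PHx the WT order per kilobase was Apoa1, Apoa2, Apoe, Apoa4, Apoc1, Apoc3, Apoa5, Apoh, Apob and Apom, so Apoa4 stood in place 4 with 4556 ± 3705 CPM per kb. The libraries' ranges overlapped for every pair of neighbours in this order but Apob and Apom. In KO liver at baseline Apoa4 stood in place 8 with 343 ± 189 CPM per kb, its range overlapping those of Apoa5 and Apob on either side. In KO liver after PHx it was again in place 4, with 3959 ± 817 CPM per kb, and again Apob and Apom were the neighbours whose ranges did not overlap.

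**Figure D1:**
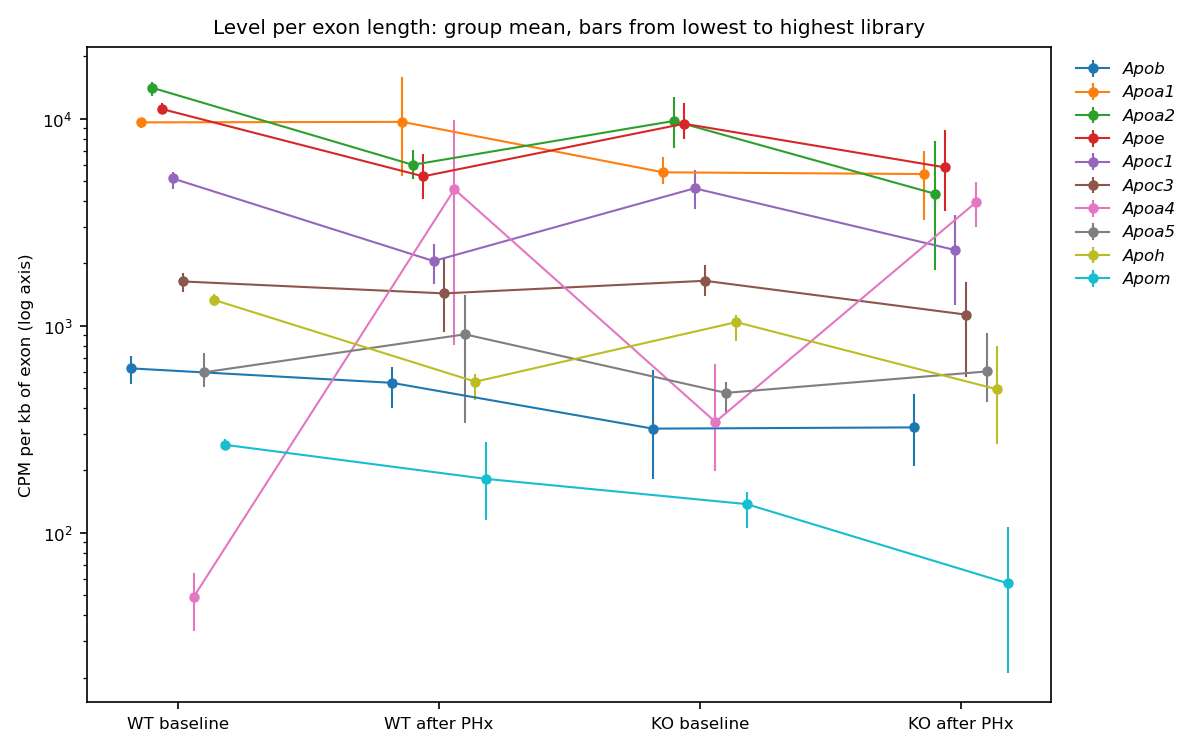
CPM per kilobase of exon (log axis) of the 10 genes in the 4 groups. Points are means of 5 libraries, bars run from the lowest to the highest library, and lines join the means of a gene. Apoa4 is last in WT at baseline and in place 4 in both groups after PHx.

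Between the genotypes at baseline, Apoa4 was 7.01-fold higher in KO liver, while Apoa1, Apob and Apom were lower by 1.74-fold, 1.95-fold and 1.93-fold. The comparison asks how resting livers of the genotypes differ. Loss of Eed cannot be told apart here from the Cre transgene, the floxed allele and the colony. These 4 of 10 genes were called, 1 higher and 3 lower, beside 16% of all genes tested (11.1% higher and 4.89% lower). The median log2 fold change was -0.34 over the 10 genes and -0.03 over all genes. Only Apoa4 was called in every alternative analysis. Scaling by library size alone moves the median of all genes to 0.45, and then Apoa4 alone was called, 1 higher and 0 lower, beside 24.8% of all genes. With no filter on low counts, too, Apoa4 alone was called, beside 7.65%. Leaving out any 1 of the 10 baseline libraries also left Apoa4 alone, or with Apob when WT replicate 2 or KO replicate 8 was left out. A fit of the baseline libraries alone went the other way and called 6 of the 10, with Apoa2 and Apoh also lower, beside 39.5% of all genes.

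After PHx, Apom was 3.19-fold and Apoa1 1.79-fold lower in KO than in WT liver, and Apoa4 was not called. The comparison asks how regenerating livers of the genotypes differ. The call covered 2 of 10 genes, both lower, beside 24.2% of all genes tested (8.20% lower). The 10 genes had a median log2 fold change of -0.40, against -0.01 over all genes. Apom was called in every alternative, and Apoa1 was not called without WT replicate 2, 3 or 4 or KO replicate 8 or 11, where the count was 1. It was also not called with no filter (14% of all genes called) or in a fit of the libraries after PHx alone (9.69%). Without KO replicate 12 the count was 4, with Apoa2 and Apob also lower, and with scaling by library size alone Apom was lower and Apoe higher, 1 in each direction.

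In WT liver, Apoa4 rose 93.2-fold after PHx while Apoa2, Apoc1, Apoe and Apoh fell by 2.11-fold to 2.51-fold. In KO liver the same 5 genes and Apom were called, with Apoa4 11.5-fold higher and the others lower. These counts of 5 in WT and 6 in KO stand beside 20.1% and 29.5% of all genes called. The lower calls alone were 4 and 5 of 10, beside 8.68% and 12.1%. The medians over the 10 genes were -0.39 in WT and -0.62 in KO, against 0.04 and 0.10 over all genes. Without any 1 library, 5 or 6 of the 10 were called in each genotype. With no filter on low counts Apoe was lost in both, which left 4 in WT beside 9.62% of all genes and 5 in KO beside 15%. A fit of the KO libraries alone left 3 in KO beside 20.6%.

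**Figure D2:**
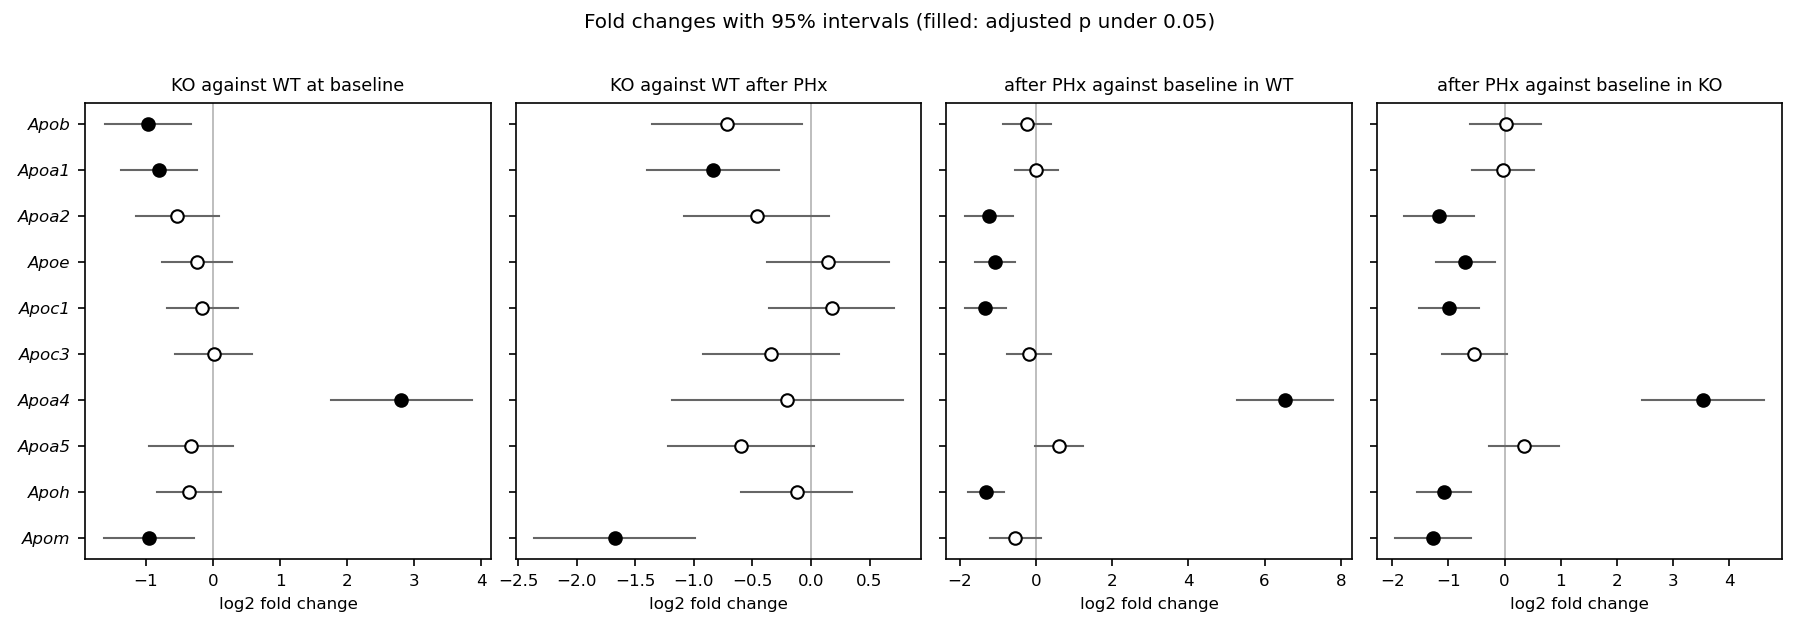
Log2 fold changes of the 10 genes with 95% intervals in 4 comparisons, each panel with its own horizontal axis. Filled points have an adjusted p under 0.05, which are 4, 2, 5 and 6 genes from left to right.

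The response to PHx itself was compared between the genotypes, and edgeR called 0 of the 10 genes, beside 0.389% of all genes (0.164% higher and 0.225% lower). At an unadjusted p under 0.05, 1 of the 10 differed, Apoa4, beside 13.3% of all genes, and DESeq2 called 1 of the 10, also Apoa4, beside 2.23%. Its rise was smaller in KO liver by a log2 difference of -3.01 (SE 0.68, 95% interval -4.44 to -1.59, edgeR adjusted p = 0.0565), and DESeq2 gave -3.02 with an adjusted p of 0.00131. When 1 library was left out, the edgeR adjusted p of this difference ran from 0.00948 to 0.114, and it was under 0.05 without WT replicate 1 or 5 after PHx or KO replicate 10 after PHx. For the other 9 genes the adjusted p was 0.505 or more. Their intervals are wide. The one for Apoe ran from -0.36 to 1.12 and the one for Apom from -1.67 to 0.22.

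**Figure D3:**
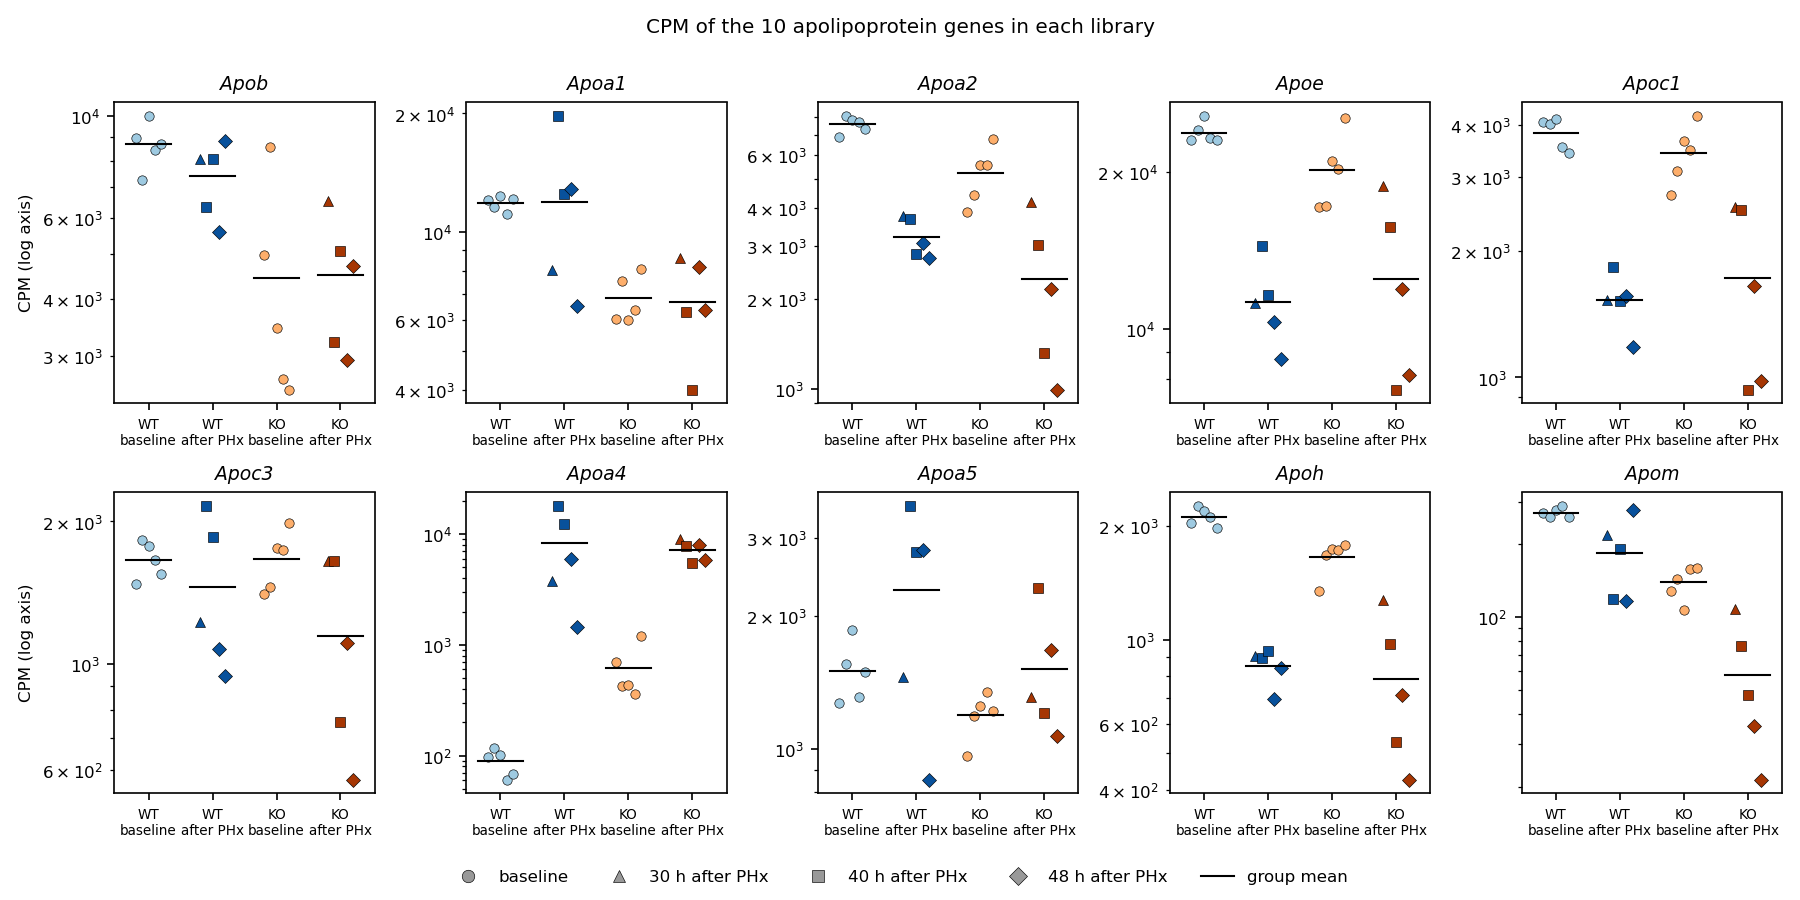
CPM (log axis, a separate range in each panel) of the 10 genes in each of the 20 libraries, by group. Symbols give the hours after PHx and lines the group means. For Apoa4 all 10 baseline libraries lie below all 10 libraries after PHx.

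Apob, the scaffold of very-low-density lipoprotein, was lower in KO liver at baseline. Its CPM in the 5 WT baseline libraries was 8950.3, 7261, 9995, 8449.6 and 8702. In the 5 KO baseline libraries, replicates 7, 8, 10, 11 and 12, it was 4973, 8551, 3458, 2669 and 2532. KO replicate 8 lies inside the WT range and the other 4 KO libraries lie below it, so the groups overlap through 1 library. The log2 fold change was -0.97, SE 0.31, adjusted p = 0.0375, and without KO replicate 8 it was -1.35. This call was lost without WT replicate 1, 3, 4 or 5 or KO replicate 7, 10, 11 or 12, with an adjusted p of up to 0.0973. It was also lost with scaling by library size alone (-0.47, adjusted p = 0.265) and with no filter on low counts (-0.90, 0.124). After PHx the CPM ran from 5592 to 8835 in WT and from 2940.4 to 6539 in KO (log2 fold change -0.72, SE 0.31, adjusted p = 0.0962), and the groups overlap. PHx itself left no call in either genotype (log2 fold changes -0.23 in WT, 95% interval -0.87 to 0.40, and 0.02 in KO, -0.62 to 0.66).

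Apoa1, the main protein of HDL, was lower in KO liver at both stages. At baseline it was 12111, 11579, 12359, 11128 and 12121 CPM in WT and 6050.1, 7529, 5994, 6361 and 8092 in KO. The highest KO library lies below the lowest WT library, and 5 of the 10 genes (Apoa1, Apoa2, Apoa4, Apoh and Apom) had baseline groups without overlap, beside 27.9% of all genes. That is a log2 fold change of -0.80, SE 0.27, adjusted p = 0.0482. After PHx, Apoa1 was 8028, 19687, 12538, 12862 and 6514 CPM in WT and 8594, 6280.5, 3997, 8154 and 6353 in KO. The WT libraries at 40 h and 1 at 48 h are the high ones, and the groups overlap through the WT libraries at 30 h and the other at 48 h. That log2 fold change was -0.84, SE 0.27, adjusted p = 0.0289. In neither genotype was the change with PHx called, with a log2 fold change of 0.01 in WT (95% interval -0.55 to 0.57) and -0.03 in KO (-0.59 to 0.53). The paired mice went both ways, with Apoa1 up in 3 of 4 WT and 3 of 5 KO mice.

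Apoa2, the second protein of HDL, fell after PHx in both genotypes. In WT its CPM was 6893, 8073, 7868, 7741 and 7323 at baseline and 3771, 3683, 2819, 3059.7 and 2735 after PHx. All WT libraries after PHx lie below all WT baseline libraries. In KO it was 3872, 4402, 5542, 5548 and 6804 at baseline and 4189.8, 3004, 1317, 2151 and 997 after PHx, where the 30 h library reaches into the baseline range. With PHx the log2 fold change was -1.24, SE 0.30, adjusted p = 0.00756 in WT and -1.17, SE 0.30, adjusted p = 0.00839 in KO, and it was down in 4 of 4 WT and 5 of 5 KO mice. The KO call was not made in a fit of the KO libraries alone (adjusted p = 0.0676). Between genotypes Apoa2 was not called, although the baseline groups did not overlap (log2 fold change -0.53, SE 0.30, adjusted p = 0.233). In a fit of the baseline libraries alone it was called lower in KO (-0.51, adjusted p = 0.0150).

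Apom, the sphingosine-1-phosphate carrier of HDL, was the gene of the 10 with the largest fold change below 0 between genotypes after PHx. At baseline it was 268, 258, 276, 287 and 259 CPM in WT and 128, 144, 107, 157 and 160.0 in KO, with no overlap. After PHx it was 218, 119, 191, 116 and 278 CPM in WT. In KO after PHx it was 108, 76.4, 47.6, 35.6 and 21.4 CPM, where the libraries at 30 and 40 h are higher than those at 48 h. All 5 KO libraries lie below all 5 WT libraries, and Apom is the 1 of 10 genes without overlap after PHx, beside 10% of all genes. The log2 fold change between genotypes was -0.95, SE 0.32, adjusted p = 0.0498 at baseline and -1.68, SE 0.33, adjusted p = 0.00105 after PHx. With PHx it fell in KO (-1.27, SE 0.33, adjusted p = 0.00829), in 5 of 5 mice. In WT the value was -0.55, SE 0.32, adjusted p = 0.242, with 3 of 4 mice down, and the difference between these responses was not called (-0.72, adjusted p = 0.505).

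Apoe, the remnant ligand, was the gene of the 10 with the highest CPM in both baseline groups, and it fell after PHx. In WT it was 23052, 24095, 25577, 23178 and 22977 CPM at baseline and 11193, 14415, 11624, 10304 and 8751 after PHx, with no overlap. The log2 fold change in WT was -1.08, SE 0.25, adjusted p = 0.00617. In KO it was 17139.8, 17188, 21001, 20266 and 25427 CPM at baseline and 18822, 15667, 7634, 11933 and 8129 after PHx, where the 30 h library lies inside the baseline range. The KO log2 fold change was -0.70, SE 0.25, adjusted p = 0.0419. Every paired mouse went down, 4 of 4 in WT and 5 of 5 in KO. The KO call did not hold without KO baseline replicate 7, 10, 11 or 12 or KO replicate 7, 8 or 11 after PHx, with an adjusted p of up to 0.1196. Nor did it hold with no filter on low counts (adjusted p = 0.142) or in a fit of the KO libraries alone (0.189). With no filter the WT call was lost by a small margin (-1.02, adjusted p = 0.05001). Between genotypes Apoe was not called at baseline (-0.23, 95% interval -0.76 to 0.29) or after PHx (0.14, -0.38 to 0.67), and with scaling by library size alone it was called higher in KO after PHx (0.46, adjusted p = 0.0425).

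Apoc1, which slows the clearance of remnants, lies next to Apoe and moved with it. Its CPM was 3416 to 4122 in WT at baseline and 1184 to 1837 after PHx. In KO it was 2716 to 4189.9 at baseline and 935 to 2550.0 after PHx. In both genotypes all libraries after PHx lie below all baseline libraries. Its log2 fold change was -1.33, SE 0.26, adjusted p = 0.00188 in WT and -0.99, SE 0.26, adjusted p = 0.00888 in KO, where a fit of the KO libraries alone gave an adjusted p of 0.0684. Over the 20 libraries, which share the group differences and the scaling, Pearson's r of log2(CPM + 1) between Apoc1 and Apoe was 0.99, and 0.96 after the group means were taken out. No gene among 12539 with a mean of at least 1 CPM was closer to Apoe by this measure than Apoc1.

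Apoc3, an inhibitor of lipoprotein lipase that lies between Apoa1 and Apoa4, was not called in any comparison. Its WT libraries held 1477 to 1831 CPM at baseline and 946 to 2154 CPM after PHx. Its KO libraries held 1406 to 1990.2 CPM at baseline and 572 to 1653 CPM after PHx. Every pair of groups overlapped. The baseline difference between genotypes had a log2 fold change of 0.01 (95% interval -0.57 to 0.59), and the KO response one of -0.54, SE 0.28, adjusted p = 0.141, with 5 of 5 mice down.

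Apoa4 differed most between the groups. In WT at baseline it was 96.8, 117, 101, 60.9 and 68.1 CPM. In WT after PHx it was 3758, 17842, 12389, 5894 and 1465 CPM. Both 40 h libraries are the highest, and the lowest of these 5 libraries is still above every baseline library of either genotype. In KO at baseline it was 697, 428, 432, 363 and 1192 CPM, all above the WT baseline libraries. In KO after PHx it was 8930.4, 7782, 5449.7, 7931 and 5837 CPM, a narrow range that lies inside the WT range after PHx. At baseline the log2 fold change between genotypes was 2.81, SE 0.51, adjusted p = 0.000743. After PHx it was -0.20, SE 0.47, adjusted p = 0.789, with a 95% interval from -1.19 to 0.78. The response was 6.54, SE 0.60, adjusted p = 1.93e-06 in WT and 3.53, SE 0.52, adjusted p = 0.000421 in KO, up in 4 of 4 and 5 of 5 mice. The baseline call and both responses were called in every alternative and without any 1 library.

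**Figure D4:**
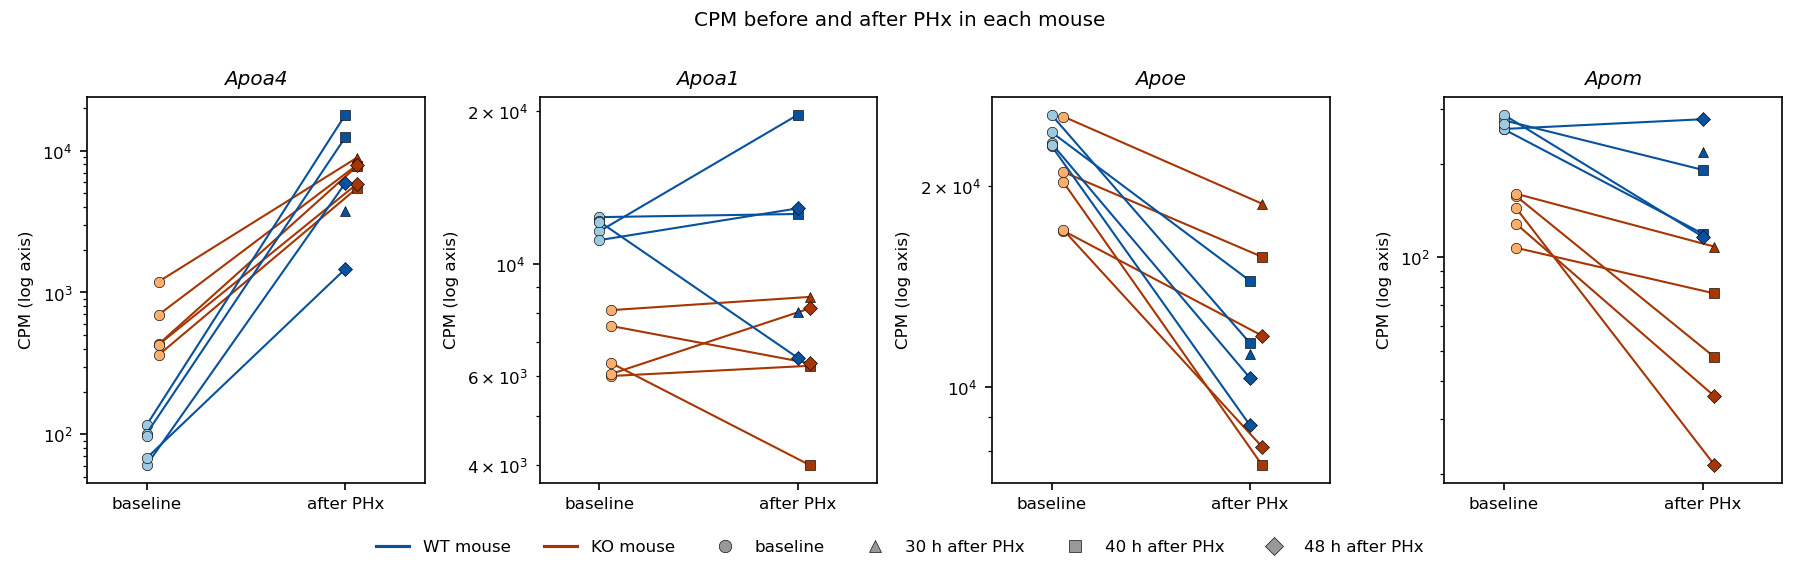
CPM (log axis) of Apoa4, Apoa1, Apoe and Apom before and after PHx, with a line for each of the 9 mice whose labels link both samples. The WT baseline library with no mouse number and the 30 h WT library are shown without a line. Apoa4 rises and Apoe falls in all 9 mice, Apoa1 goes both ways, and Apom falls in 8 of 9.

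The intestine is the main source of Apoa4, so enterocyte markers were read in the same libraries. Of 7 such genes, Cdx1 was at 0 in all 20 libraries, Sis in 19, Alpi in 17, Cdx2 in 16 and Lct in 13. The libraries where Alpi (3) and Cdx2 (4) were above 0 are all KO after PHx, with means of 0.163 and 0.149 CPM over that group. Their sum in WT libraries was 64.0 to 71.6 CPM at baseline and 67.2 to 145 CPM after PHx, and in KO libraries 29.7 to 44.6 CPM at baseline and 49.3 to 133 CPM after PHx. On average most of it was Fabp2, which was called lower in KO at baseline (log2 fold change -0.99, adjusted p = 0.0117). It rose with PHx in KO (1.30, adjusted p = 0.00208) and was not called in WT (0.67, 0.0662). Vil1, an actin-bundling protein also known in bile duct cells, was 0.04999 to 0.321 CPM in WT and 2.58 to 8.04 CPM in KO at baseline. After PHx it was 0 to 0.304 CPM in WT and 0.240 to 63.8 CPM in KO, with a median of 5.45, so that 1 KO library stands far above the rest. It was called higher in KO at both stages (adjusted p = 0.00586 and 0.000235), and its change with PHx was not called in either genotype. The part of these markers in the Apoa4 values was not tested.

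The noncoding gene Gm10680 overlaps exons of Apoa4 on the other strand. Without stated strand information its reads cannot be told apart from those of Apoa4. It was 0.153 CPM on average in WT at baseline and 15.4 ± 11.6 after PHx. In KO it was 1.69 ± 2.04 at baseline and 15.6 ± 4.73 after PHx, so its level was far below that of Apoa4. It was the gene most like Apoa4 over the 20 libraries (r = 0.97), followed by Thbd (0.97), which encodes thrombomodulin, and Lcn2 (0.95), which encodes lipocalin-2. Of the other tested genes within 100 kb of the Apoa1 to Apoa5 group, Sik3, Zpr1 and Bud13, none was called in any of the 5 comparisons, while Gm10680 was called higher in KO at baseline and higher after PHx in both genotypes. Within groups, r between Apoa4 and its neighbours was 0.79 for Apoa1, 0.73 for Apoa5 and 0.63 for Apoc3, over the same 20 libraries. With the group differences left in, it was -0.13, 0.40 and -0.29.

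Apoa5, which promotes triglyceride clearance by lipoprotein lipase, was not called in any comparison. In WT it was 1274, 1561, 1864, 1315 and 1499 CPM at baseline and 1458, 3538, 2785, 2825 and 855 after PHx. The 40 h libraries and 1 of the 48 h libraries lie above the baseline range, while the other 48 h library is the lowest of all 20. The log2 fold change in WT was 0.61, SE 0.30, adjusted p = 0.156, and without that library it was 0.87 with an adjusted p of 0.0262. Scaling by library size alone also gave a call (0.94, adjusted p = 0.0150). In KO it was 966 to 1349 CPM at baseline and 1074 to 2318 after PHx (0.34, SE 0.30, adjusted p = 0.389). Between genotypes after PHx the log2 fold change was -0.60, SE 0.30, adjusted p = 0.156, with calls when WT replicate 5 or KO replicate 10 was left out (lowest adjusted p = 0.0354).

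Apoh, the phospholipid-binding plasma protein, fell after PHx in both genotypes. In WT it was 2047, 2262, 2197, 2113 and 1984 CPM at baseline and 908, 896, 932, 697 and 843 after PHx. In KO it was 1352, 1676, 1745, 1734 and 1787 at baseline and 1276, 977, 536, 713 and 426 after PHx. Neither genotype shows overlap between the stages. Apoh had a log2 fold change of -1.31, SE 0.23, adjusted p = 0.000904 in WT and -1.08, SE 0.23, adjusted p = 0.00316 in KO, down in 4 of 4 and 5 of 5 mice, and both were called in every alternative. After PHx 5 of the 10 genes had WT groups without overlap with baseline (Apoa2, Apoa4, Apoc1, Apoe and Apoh), beside 17.8% of all genes, and 3 had such KO groups (Apoa4, Apoc1 and Apoh), beside 13.9%. Apoh followed Apoa2 closely, with an r of 0.96 over the 20 libraries and 0.93 within groups. The Apoh gene body is overlapped by exons of Prkca on the other strand, and Prkca was called higher in KO at baseline (1.43, adjusted p = 0.00791), where Apoh was not called (-0.35, adjusted p = 0.311). A fit of the baseline libraries alone called Apoh lower in KO (-0.33, adjusted p = 0.0243). Prkca was also called higher after PHx in WT (1.01, adjusted p = 0.0441), a call lost with the mouse as a block (adjusted p = 0.0706 for 9 mice) and in 8 of 10 fits without 1 library.

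The 3 genes most alike to each of the other members by the same r over the 20 libraries are given as a description. For Apoa2 they were Gnmt (0.99), a glycine methyltransferase, Pccb (0.99) and Serpina1d (0.98), one of several near-identical antitrypsin genes. For Apoh they were Rida (0.98), B2m (0.97) and Slc27a5 (0.97), a bile acid ligase. After Apoc1, Apoe was closest to H2-K1 (0.96), a class I histocompatibility gene, and Sdhb (0.96), and after Apoe, Apoc1 was closest to Ttr (0.96), which encodes transthyretin, and H2-K1 (0.96). Apom was closest to Gstp-ps (0.96), a glutathione transferase pseudogene whose reads may belong to its copies, Cyp2c67 (0.96) and Prdx4 (0.96). The values were lower for Apoc3, with Gpt (0.94), an alanine aminotransferase, Cox5b (0.92) and F12 (0.90), and for Apoa1, with Prdx5 (0.92), Hopx (0.92) and Rps18 (0.91). For Apob they were 4932438A13Rik (0.91), Ltn1 (0.90) and Ergic2 (0.90), and for Apoa5 Dctn3 (0.88), Mat1a (0.88) and Zfp213 (0.86).

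Samples at 30 h were 1 library per genotype, and no test between times was made within a genotype. In KO, the 30 h library was the highest of the 5 for Apoa1, Apoa2, Apoa4, Apob, Apoc1, Apoc3, Apoe, Apoh and Apom, and a 40 h library was the highest for Apoa5. The same mouse, KO replicate 12, also had the highest of the 5 KO baseline libraries for Apoa1, Apoa2, Apoa4, Apoc1, Apoc3, Apoe, Apoh and Apom. Its TMM factors, 0.983 at baseline and 0.977 at 30 h, were the lowest of the KO libraries at each stage. Time and mouse thus cannot be told apart here. In WT, the 30 h library was the highest for Apoa2 alone. A fit with time as a term gave the same 2 calls between genotypes after PHx.

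The genes beside Apoe and Apoc1 include further apolipoproteins. Apoc2, the activator of lipoprotein lipase, was 179, 164, 187, 164 and 139 CPM in WT at baseline and 1339.9, 1063, 1241, 741 and 1290.2 in KO. All KO baseline libraries are above all WT ones, and the log2 fold change was 2.77, SE 0.36, adjusted p = 2.80e-05. After PHx it was 677, 2559.7, 1787, 1271 and 553 CPM in WT and 1324, 2735, 1276, 2476 and 2117 in KO. In WT it rose with PHx (3.04, SE 0.36, adjusted p = 2.74e-05), in KO the change was not called (0.81, SE 0.34, adjusted p = 0.0753). With scaling by library size alone Apoc2 was called higher after PHx in KO (1.06, adjusted p = 0.0175) and higher in KO than in WT after PHx (0.95, 0.0320). The difference of these responses was -2.23, SE 0.48, adjusted p = 0.0454, a call that was lost with the mouse as a block (adjusted p = 0.0957 for 9 mice) and in 16 of 20 fits without 1 library. Apoc4, between Apoc1 and Apoc2, was not called at baseline (-0.64, SE 0.29, adjusted p = 0.138) and was lower in KO after PHx (-0.97, SE 0.29, adjusted p = 0.0197), though not without KO replicate 7, 8 or 11. A fit of the compared libraries alone turned both around, with a call at baseline (-0.62, adjusted p = 0.00799) and none after PHx (-0.95, 0.125). In GENCODE M21 a read-through gene spans Apoc4 and Apoc2 on the same strand, so how reads were shared between them is uncertain. Of 9 tested genes within 100 kb of Apoc1 or Apoe, Bcam, a laminin receptor, was called higher in KO at baseline (1.95) and after PHx (1.35) and after PHx in WT (2.21) and KO (1.61). Relb was higher in KO at baseline (1.90). Tomm40, next to Apoe, was higher after PHx in WT (0.52) and KO (0.80). With the mouse as a block the WT call of Tomm40 was lost (adjusted p = 0.14 for 9 mice), and it was lost without WT baseline replicate 1 or 3 or WT replicate 2 after PHx. Clasrp was called higher after PHx in KO (0.99), a call lost with the mouse as a block (adjusted p = 0.0707 for 9 mice) and without any of 4 single libraries. Apoe and Apoc1 thus fell after PHx while Apoc2 rose in WT and Bcam rose in both genotypes.

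**Figure D5:**
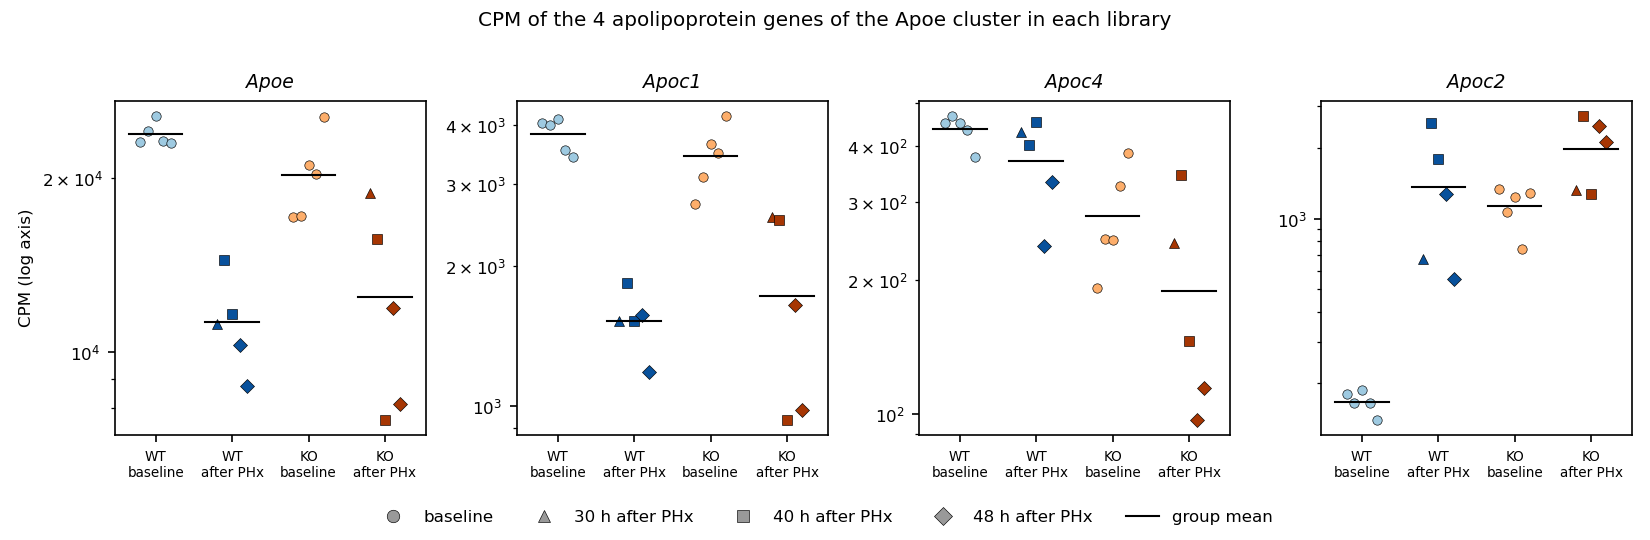
CPM (log axis, a separate range in each panel) of Apoe, Apoc1, Apoc4 and Apoc2, which lie side by side on chromosome 7, in each of the 20 libraries. Symbols give the hours after PHx and lines the group means. Apoe and Apoc1 are lower after PHx, and Apoc2 is lowest in the 5 WT baseline libraries, at 139 to 187 CPM.

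Around the other members, 13 genes near Apoa2, 15 near Apom and 2 near Apoh were tested, and none near Apob. The counts below stand beside the shares of all genes called. These were 16% at baseline and 24.2% after PHx between genotypes, and 20.1% with PHx in WT and 29.5% in KO. Near Apoa2, Fcer1g was called higher in KO at baseline (0.99), where Apoa2 was not called. After PHx 3 of the 13 were higher and 4 lower in KO than in WT. Of these, Ppox (-0.78) and Ufc1 (-0.61), both lower, kept the call without any 1 library but not with scaling by library size alone, and the calls of Nr1i3 and Gm20045 (lower) and of Adamts4, Pcp4l1 and Fcer1g (higher) were each lost without some single library. With PHx in KO, where Apoa2 fell, Adamts4 rose (2.95), and Tomm40l (-0.91), Usp21 (-0.69) and Sdhc (-0.61) fell, calls that were each lost without some single library. In WT Adamts4 alone was called (2.60), though not without WT baseline replicate 5 or WT replicate 4 after PHx. Near Apom, where Apom was lower in KO, Clic1 was higher after PHx (1.22). Ly6g6d was called higher at baseline, at 0.504 ± 0.215 CPM in KO against a mean of 0.0130 CPM in WT, where the median library was at 0. Clic1 was 1 of 4 genes near Apom called higher in KO after PHx, and the calls of the other 3 (Ddah2, Ly6g6d and Gpank1) were each lost without some single library. None was lower. With PHx in KO, where Apom fell, 3 of the 15 fell and 2 rose. Ltb, which encodes lymphotoxin beta, fell (-2.00), and so did Aif1 (-1.65), known from macrophages, though not with scaling by library size alone. The third, Lst1 (-2.21), was not called without KO replicate 8 after PHx. Both rises, of Clic1 (0.85) and D17H6S53E (0.86), were lost without some single library. In WT Ltb alone was called (-1.91), a call lost with the mouse as a block (adjusted p = 0.0816 for 9 mice).

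Genes that act with the apolipoproteins were read from 6 lists. Among 11 tested other apolipoproteins, 3 were higher and none lower in KO at baseline, and 3 were lower and none higher after PHx. With PHx, 3 rose and 1 fell in WT, and 2 rose and 3 fell in KO. The response to PHx differed between genotypes for 3 of the 11 (Apoc2, Saa1 and Saa2), each with a lower value in KO, beside 0.389% of all genes. The acute-phase HDL proteins Saa1 and Saa2, near-identical copies whose reads may be split unevenly, averaged 40.6 and 14.3 CPM in WT at baseline and 3291 and 3330.2 CPM after PHx. Their log2 fold changes with PHx were 6.34 (adjusted p = 2.74e-05) and 7.86 (9.02e-06) in WT and 2.13 (0.0168) and 2.74 (0.0062) in KO. The response of Saa2 was smaller in KO (-5.13, SE 0.94, adjusted p = 0.0176), a call lost with the mouse as a block (adjusted p = 0.234 for 9 mice). For Saa1 the difference was -4.22, SE 0.88, adjusted p = 0.0418, lost with the block (adjusted p = 0.290 for 9 mice) and in 14 of 20 fits without 1 library.

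Among 13 tested genes of lipoprotein assembly and secretion, 3 were lower and 0 higher in KO at baseline, and 2 were lower after PHx. Mia2 and Mia3, cargo receptors of the endoplasmic reticulum exit sites, were lower at baseline by log2 values of -0.98 (adjusted p = 0.00265) and -0.95 (0.000887), and neither was called with scaling by library size alone. With PHx, 2 fell in WT, and 3 fell and 1 rose in KO. Mia3 fell in WT (-0.90, adjusted p = 0.00156). The KO calls of Cideb, Sort1 and Mttp, the microsomal transfer protein that loads lipid onto ApoB, were each lost without some single library.

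Among 10 genes of HDL maturation and turnover, 1 was higher in KO at baseline, and 1 was higher and 1 lower after PHx. Abcg1, a cholesterol exporter known from macrophages, was the higher one at both stages (1.73, adjusted p = 0.00553, and 1.54, 0.00775), though after PHx not in a fit of those libraries alone, and macrophage markers were higher at baseline as given above. With PHx, 3 fell in WT, and 4 fell and 1 rose in KO. Hepatic lipase, Lipc, fell in WT (-2.05, adjusted p = 0.000308) and KO (-1.56, 0.00224).

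Among 11 receptors and clearance genes, 2 were higher in KO at baseline, and 2 were higher and 1 lower after PHx. The VLDL receptor gene Vldlr, usually low in liver, was higher in KO at baseline (1.99, adjusted p = 0.008) and after PHx (4.78, 5.35e-06), while Lsr, the lipolysis-stimulated receptor, was lower after PHx (-0.89, 0.00189). With PHx, 2 rose and 1 fell in WT, and 4 rose and 2 fell in KO. Sdc1, a heparan sulphate proteoglycan that takes up remnants in hepatocytes, rose in WT (1.22, adjusted p = 0.000482).

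Among 7 lipases and lipase regulators, 1 was higher in KO at each stage. This was Lpl, lipoprotein lipase, which the adult liver normally makes little of (2.93, adjusted p = 0.000187, at baseline and 2.29, 0.00098, after PHx). With PHx, 2 fell in WT, and 3 fell and 1 rose in KO. In KO, Lpl fell (-1.63, adjusted p = 0.0103) and Angptl4, an inhibitor of the enzyme, rose (1.75, 0.0101).

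Among 19 transcriptional regulators of apolipoprotein genes, 4 were lower and 0 higher in KO at baseline, and 3 were lower and 2 higher after PHx. Nr5a2, a nuclear receptor of cholesterol transport genes, was lower after PHx (-1.02, adjusted p = 0.00639), though not with scaling by library size alone. With PHx, 4 fell in WT, and 4 fell and 2 rose in KO. The carbohydrate-response factor Mlxipl fell in both (WT -1.80, adjusted p = 0.0046, and KO -2.07, 0.002), and Cebpa, a hepatocyte factor, fell in WT (-1.77, 0.000145). Nr0b2, a corepressor that binds nuclear receptors, fell in KO (-1.51, 0.00412). These counts stand beside the same shares of all genes called as given for the 10 genes.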

How the data were processed

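Liver polyA RNA from 20 samples in 4 groups was sequenced in read pairs. The deposited values are whole-number counts per gene and sample, made by the authors from uniquely mapped reads on mm10, per the design text. The counting tool, annotation and strand setting are not given in the sources used here. The design text names fastp 0.20.0 for trimming, and the submitters' processing notes name Trimmomatic 0.36. Symbols came from GENCODE M21, which holds 46005 of the 46603 identifiers.

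The counts were fitted with edgeR 4.0.16 in R 4.3.3 (TMM scaling, filterByExpr, quasi-likelihood test, 4 group means over all 20 samples, 14661 genes tested, Benjamini-Hochberg adjustment, threshold 0.05). The script was tested on simulated data, with a log2 fold change of 2 set in 200 genes. It recovered 68.5% to 76% of them in the comparisons of 2 groups and 56.5% for the difference of the responses. DESeq2 1.42.0, scaling by library size alone, no filter, a minimum of 1 CPM in 5 samples, the compared samples alone, a time term, the mouse as a block, and leaving out each library were the alternatives. No p-value was computed over a list. Titles link both samples of 9 mice, so pairing follows the labels. Same-mouse residuals correlated at -0.08 to 0.21. The group-mean fit treats both samples of a mouse as separate.

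The 10 genes and the lists were chosen with earlier results of these data known. All 10 were named in every comparison. From each list at most the 2 highest and the 2 lowest called genes with a mean of at least 1 CPM were eligible, and those lost on leaving out 1 library were counted but, after their values were seen, mostly not named. Some genes of the lists are counted but not reported here by name. Called genes within 100 kb and, for each member, the 3 genes most alike by Pearson's r of log2(CPM + 1) were described. Libraries were 21634890 to 30461351 counts deep, so the lowest member count, 974, leaves counting error small beside the spread between mice.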

Additional observations from a re-analysis of the deposited data

Results flagged for a closer look

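Apoh in KO baseline replicate 7 was 1352 CPM, set apart from the next library of its group at 1676 CPM, while the other 3 ran up to 1787 CPM. Among groups of 5 with no real outlier, chance sets apart about 1 in 20, and 40 groups were looked at. Without this library the Apoh difference between genotypes at baseline remained not called, and the KO response remained called.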

How the results depend on the processing

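The share of all genes tested that was called under the same setting is given with each count of the 10 genes. At baseline between genotypes, 4 as reported (16%), the count was 1 with scaling by library size alone (24.8%), 1 with no filter on low counts (7.65%), 6 with only the samples compared (39.5%), and 1 to 2 without 1 library (11% to 15%). After PHx between genotypes, 2 as reported (24.2%), it was 1 with no filter (14%), 1 with only the samples compared (9.69%), and 1 to 4 without 1 library (18.8% to 34.3%), the 4 being without KO replicate 12. The WT response, 5 as reported (20.1%), was 4 with no filter (9.62%), 6 with scaling by library size alone (29.9%) and 5 or 6 without 1 library (14.6% to 20.5%). The KO response, 6 as reported (29.5%), was 3 with only the samples compared (20.6%), 5 with no filter (15%) and 5 or 6 without 1 library (20.1% to 40.4%). For the difference of the responses, 0 as reported (0.389%), it was 1 with scaling by library size alone (0.389%), 1 with DESeq2 (2.23%), and 0 to 1 without 1 library (0.147% to 4.74%). With the replicate block, the mouse, 5 genes were called for the WT response, 6 for the KO response and 0 for their difference, with 9 and with 10 mice, so pairing changed no member's call. The 10-mouse block takes the unnumbered WT baseline library as the fifth WT mouse. Of all single-gene alternatives for the 10 genes, 842 gave the same verdict, 14 gained and 54 lost a call, and no call changed sign. With scaling by library size alone, the median log2 fold change of all genes rose from -0.03 to 0.45 at baseline, and TMM factors ran from 0.670 to 0.806 in WT baseline libraries against 0.983 to 1.19 in KO baseline libraries. The cause of these changes was not tested.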
